A study of Mus musculus with 16 samples.

Results

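Hmgcs1, Idi1, Fdft1, Sqle, Lss, Cyp51, Insig1 and Srebf2 are 8 genes of cholesterol synthesis and its control. They were taken by name: every probe whose gene name in the scanner files is one of the 8 was used, which gave 11 of 55681 distinct probes under 8 of 34836 gene names. All 8 passed the filter on low signal and were among the 20317 genes tested. None of the 8 encodes a lipoprotein receptor, and genes of cholesterol uptake are therefore described from a separate list.

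RNA came from myoblasts, the dividing progeny of muscle satellite cells, of male C57Bl/6J mice aged between 11 and 13 weeks, and the labels list no other genotype or agent. Dispersed myoblasts grew off the fiber on gelatin and came from 1 mouse per preparation, whereas myofiber-associated myoblasts were released by trypsin from cultured single fibers and came from 2 mice per preparation. Each culture was sampled 48 and 72 hr after isolation with 4 one-color arrays, 16 in all, and 1 myofiber-associated 48-hr array (replicate 10) carried pooled preparations. The culture was read from the growth type in the labels, since their source name calls every sample a myofiber preparation. The cultures were on separate slides, and culture therefore cannot be told apart from slide, nor time from slide column, since the times were in separate columns of each slide.

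Cholesterol is built from acetyl-CoA through mevalonate, isoprenoids, squalene and lanosterol. When sterol is low in the membrane of the endoplasmic reticulum, SCAP carries SREBP-2, the protein of Srebf2, to the Golgi, where proteases free its transcription factor domain, which turns on the synthesis genes. INSIG proteins hold SCAP back when sterol is plentiful. Hmgcs1 encodes HMG-CoA synthase of the mevalonate branch, Idi1 isopentenyl diphosphate isomerase and Fdft1 squalene synthase. Sqle encodes squalene epoxidase, Lss lanosterol synthase and Cyp51 lanosterol 14-alpha demethylase. Growing cells need sterol for new membrane.

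Of the 8 genes, 6 had a promoter window in the RefSeq table for GRCm38.p6: Hmgcs1, Idi1, Lss, Cyp51, Insig1 and Srebf2. The 250 bases before the annotated start were searched on both strands for TCACNCCA, a form of the sterol regulatory element, for its longer form TCACNCCAC, for CCAAT, the NF-Y box, and for GGGCGG, a core of GC boxes. TCACNCCA was in 2 of the 6 windows, against 3.67% of all 32851 windows, and TCACNCCAC was in 1, against 1.05%. CCAAT was in all 6 windows, against 33.8% of all windows, and GGGCGG was in all 6, against 32.7%. These are matches of letters and no sites of binding. The 4 windows below are those with TCACNCCA (Hmgcs1 and Srebf2) and those of the genes with the largest differences between the cultures at 48 hr (Cyp51 and Idi1). Capitals mark TCACNCCA and CCAAT on either strand, so that ATTGG is CCAAT read on the other strand. The Hmgcs1 window is chr13:119690101-119690350 (plus strand), that of Srebf2 is chr15:82147019-82147268 (plus), that of Idi1 is chr13:8885356-8885605 (plus) and that of Cyp51 is chr5:4104698-4104947 (minus).
Hmgcs1: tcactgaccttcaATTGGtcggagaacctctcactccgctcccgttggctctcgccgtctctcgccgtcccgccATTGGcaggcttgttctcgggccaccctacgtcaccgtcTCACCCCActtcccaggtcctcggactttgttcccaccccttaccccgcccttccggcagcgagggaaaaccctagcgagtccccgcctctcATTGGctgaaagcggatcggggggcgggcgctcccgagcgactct
Srebf2: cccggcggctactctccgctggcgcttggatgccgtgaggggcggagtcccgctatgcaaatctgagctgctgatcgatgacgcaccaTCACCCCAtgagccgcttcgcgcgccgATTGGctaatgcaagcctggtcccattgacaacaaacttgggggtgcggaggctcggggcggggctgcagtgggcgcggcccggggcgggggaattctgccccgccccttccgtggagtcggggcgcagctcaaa
Idi1: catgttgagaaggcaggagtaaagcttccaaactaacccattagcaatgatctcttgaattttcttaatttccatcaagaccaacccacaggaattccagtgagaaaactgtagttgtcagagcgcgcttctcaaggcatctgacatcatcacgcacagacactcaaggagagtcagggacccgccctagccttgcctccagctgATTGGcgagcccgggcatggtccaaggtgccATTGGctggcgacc
Cyp51: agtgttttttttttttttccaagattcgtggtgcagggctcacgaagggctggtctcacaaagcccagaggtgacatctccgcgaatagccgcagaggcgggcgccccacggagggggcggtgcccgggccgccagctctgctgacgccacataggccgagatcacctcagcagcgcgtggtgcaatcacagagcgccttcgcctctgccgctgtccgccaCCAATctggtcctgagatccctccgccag
In Hmgcs1 the TCACNCCA match began 137 bases before the start, with CCAAT boxes beginning 237, 176 and 45 bases before it. In Srebf2 the match began 162 bases before the start and the CCAAT box 135 bases before it. The CCAAT boxes of Idi1 began 45 and 14 bases before the start and that of Cyp51 29 bases before it.

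Between 54% and 63.5% of probes were well above background on an array, and arrays of 1 group correlated across genes with a Pearson's r of at least 0.980. All 10 myoblast markers (Pax7, Myf5, Myod1 and Myog among them) were well above background on every array. The same held for all 10 markers of adult muscle fibers, such as Myh4, Ckm and Acta1, whose summed linear signal lay between 14900 and 35300 on the dispersed 48-hr arrays and between 9890 and 11300 on the 72-hr arrays. On the myofiber-associated arrays this sum lay between 1240000 and 1820000 at 48 hr and between 255000 and 1150000 at 72 hr, although the labels describe those preparations as free of fiber RNA. The sum of 10 endothelial markers was 55400 to 75400 and 21400 to 29200 on the dispersed arrays at 48 and 72 hr and 13900 to 23100 and 8820 to 10800 on the myofiber-associated arrays.

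Values below are normalized log2 signal, and a difference of 1 is a doubling. With 4 arrays per group the exact permutation test cannot go below p = 0.0286. The brightest probe of each of the 8 genes was well above background on all 16 arrays. These probes lie, on mm9, on chromosome 13 for Idi1 (8891524-8891583), 14 for Fdft1 (63765750-63769990, a probe across a splice junction), 15 for Sqle (59162688-59162747), 10 for Lss (76015992-76016051), 5 for Cyp51 (4081471-4081530) and Insig1 (28404246-28404305) and 15 for Srebf2 (82034765-82034824). The Hmgcs1 probe is placed on an unlocalized contig of chromosome 13.

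**Figure D1:**
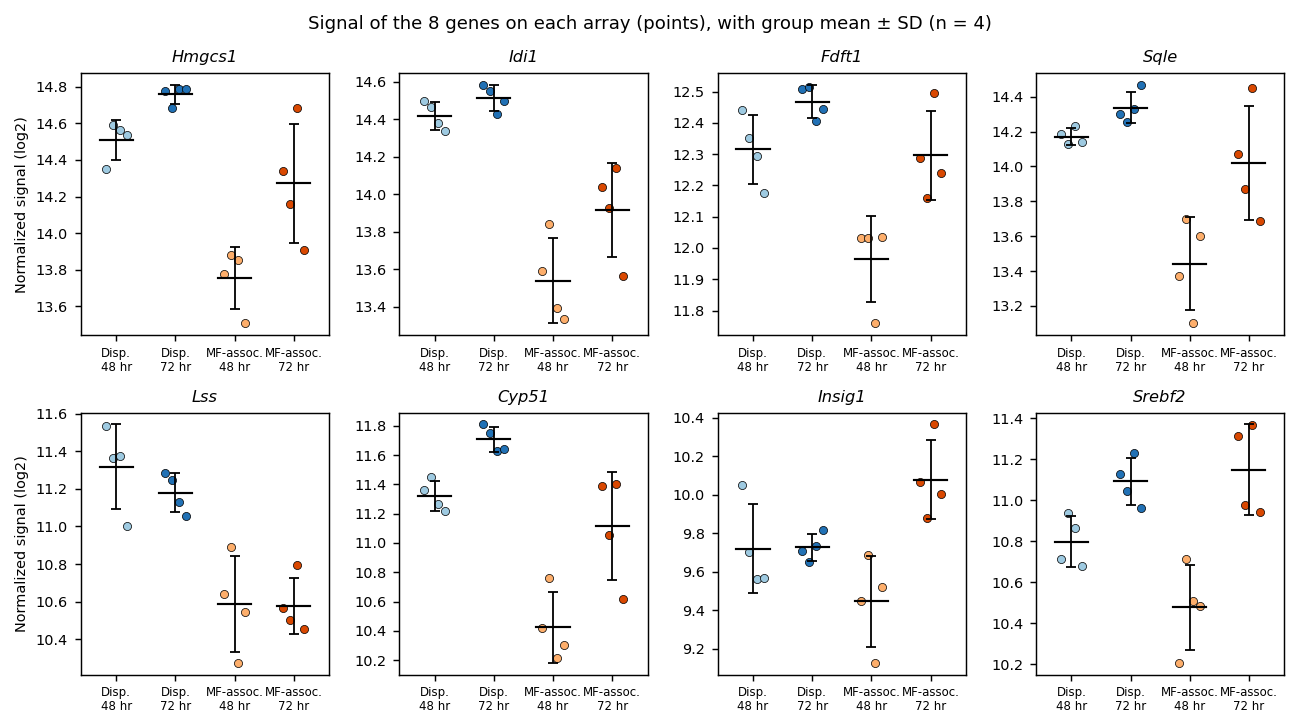
Normalized log2 signal of each gene (vertical axis, its own range in each panel) on each array (points) by culture and time, with group mean ± SD over 4 arrays (bars); Disp. stands for dispersed and MF-assoc. for myofiber-associated. In the brightest probe of each gene, shown here, the myofiber-associated 48-hr arrays had the lowest group mean in 7 of the 8 genes, the exception being Lss. The dispersed 72-hr arrays had the highest in 5. In the second Srebf2 probe, not shown here, the myofiber-associated 48-hr mean was the highest.

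Of the mevalonate and isoprenoid enzymes, Hmgcs1 read 14.35, 14.59, 14.56 and 14.53 on the dispersed 48-hr arrays and 14.77, 14.68, 14.79 and 14.79 at 72 hr. On the myofiber-associated arrays it read 13.78, 13.88, 13.85 and 13.51 at 48 hr and 14.34, 14.16, 14.68 and 13.91 at 72 hr. Its time points did not overlap in either culture, and every myofiber-associated 48-hr array was below every dispersed array, while 1 myofiber-associated 72-hr array (replicate 3) reached the dispersed range. Idi1 was tight in dispersed myoblasts, with 14.34 to 14.50 at 48 hr and 14.43 to 14.58 at 72 hr, and lower on every myofiber-associated array, with 13.34 to 13.84 and 13.56 to 14.14. Fdft1 moved least between groups: its means were 12.32 ± 0.11 (SD, n = 4) and 12.47 ± 0.05 in dispersed and 11.97 ± 0.14 and 12.30 ± 0.14 in myofiber-associated myoblasts at 48 and 72 hr.

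Of the enzymes that act on squalene and lanosterol, Sqle lay between 14.13 and 14.23 in dispersed myoblasts at 48 hr and between 14.25 and 14.47 at 72 hr, with no overlap. In myofiber-associated myoblasts Sqle spread more widely, from 13.10 to 13.70 at 48 hr and from 13.69 to 14.45 at 72 hr. Cyp51 read 11.36, 11.45, 11.27 and 11.22 on the dispersed 48-hr arrays and 11.81, 11.75, 11.63 and 11.64 at 72 hr. The times were thus apart in all 8 dispersed arrays. On the myofiber-associated arrays Cyp51 read 10.42, 10.76, 10.21 and 10.30 at 48 hr and 11.39, 11.05, 11.41 and 10.62 at 72 hr, and the last of these, replicate 4, lay within the 48-hr range. Lss had another pattern, since it read 11.54, 11.37, 11.37 and 11.00 in dispersed myoblasts at 48 hr, 11.29, 11.25, 11.13 and 11.06 at 72 hr, and between 10.27 and 10.89 on all 8 myofiber-associated arrays at either time. The cultures did not overlap in Lss and the times overlapped in each culture.

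Of the control genes, Insig1 read 10.05, 9.70, 9.56 and 9.56 on the dispersed 48-hr arrays and 9.71, 9.65, 9.73 and 9.82 at 72 hr. On the myofiber-associated arrays it read 9.45, 9.69, 9.13 and 9.52 at 48 hr and 10.07, 9.88, 10.36 and 10.00 at 72 hr. Every myofiber-associated 72-hr array was above every other array of either culture except dispersed 48-hr replicate 1. Srebf2 read 10.72, 10.94, 10.86 and 10.68 in dispersed myoblasts at 48 hr and 11.13, 11.05, 11.23 and 10.96 at 72 hr. In myofiber-associated myoblasts it read 10.21, 10.71, 10.51 and 10.48 at 48 hr and 11.31, 10.98, 11.37 and 10.94 at 72 hr, so that the times were apart in both cultures.

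The order of the group means, from high to low, was dispersed 72 hr, dispersed 48 hr, myofiber-associated 72 hr and myofiber-associated 48 hr for Hmgcs1, Idi1, Fdft1, Sqle and Cyp51. Next to each other in that order, dispersed 48-hr and myofiber-associated 72-hr arrays overlapped in Hmgcs1, Fdft1, Sqle and Cyp51 and not in Idi1. In Insig1 and the brighter Srebf2 probe the myofiber-associated 72-hr mean was highest, followed by dispersed 72 hr, dispersed 48 hr and myofiber-associated 48 hr. The myofiber-associated and dispersed 72-hr arrays were apart in Insig1 and overlapped in Srebf2, and dispersed 48-hr and myofiber-associated 48-hr arrays overlapped in both. In Lss both dispersed means stood above both myofiber-associated means, and 48 and 72 hr overlapped within each culture. From the highest to the lowest group mean the span was 1.29 in Cyp51, 1.003 in Hmgcs1, 0.98 in Idi1, 0.89 in Sqle, 0.74 in Lss, 0.67 in Srebf2, 0.63 in Insig1 and 0.50 in Fdft1.

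The first comparison asks what changed between 48 and 72 hr in dispersed myoblasts. Cyp51 rose, by 0.39 ± 0.07 (log2, SE) or 1.31-fold (limma, adjusted p = 0.00442), and was the 1 gene of the 8 past the threshold of 0.01, against 7.37% of all genes tested that rose. Of the other 7, Srebf2 (0.29 ± 0.08, limma adjusted p = 0.0291) and Hmgcs1 (0.25 ± 0.06, 0.0198) had an adjusted p under 0.05, and Sqle (0.17), Fdft1 (0.15), Idi1 (0.10), Insig1 (0.01) and Lss (-0.14) did not. The median change of the 8 was 0.16, against 0.02 over all genes tested. Hmgcs1, Sqle, Cyp51 and Srebf2 were higher at 72 hr with no overlap between the times (4 of 8, against 17.5% of all genes). The call of Cyp51 was lost without dispersed 72-hr replicate 5 or 6 or 48-hr replicate 3 or 4, with an adjusted p of 0.0125 to 0.0156. In such bulk samples fewer cells of a type and less RNA per cell cannot be told apart.

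In the myofiber-associated culture the time changes were larger in size for 7 of the 8 genes, and the arrays were more scattered. None of the 8 genes passed an adjusted p of 0.01 in limma, against 3.74% of all genes that rose, while 7 of the 8 were higher at an unadjusted p under 0.05, against 23.8% of all genes. The changes were 0.69 ± 0.20 for Cyp51, or 1.62-fold, 0.67 ± 0.15 for Srebf2 (1.59-fold), 0.63 ± 0.15 for Insig1 (1.55-fold), 0.58 ± 0.19 for Sqle, 0.52 ± 0.17 for Hmgcs1, 0.38 ± 0.16 for Idi1 and 0.33 ± 0.11 for Fdft1. Lss differed by -0.01 ± 0.14. These values and the counts below use the brightest probe, and the second Srebf2 probe, described below, differed by -0.59. At an adjusted p under 0.05 there were 3 genes, Srebf2 (0.0179), Insig1 (0.0228) and Cyp51 (0.0415), or 3 of 8 against 13.5% of all genes. The median change was 0.55, against 0.06 over all genes tested, and 4 of 8 (Hmgcs1, Fdft1, Insig1 and Srebf2) had no overlap between the times, against 15.9% of all genes. In 1 limma fit of all 16 arrays, which takes the spread from the tighter dispersed arrays as well, 6 of the 8 rose (all but Idi1 and Lss), against 16.7% of all genes.

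**Figure D2:**
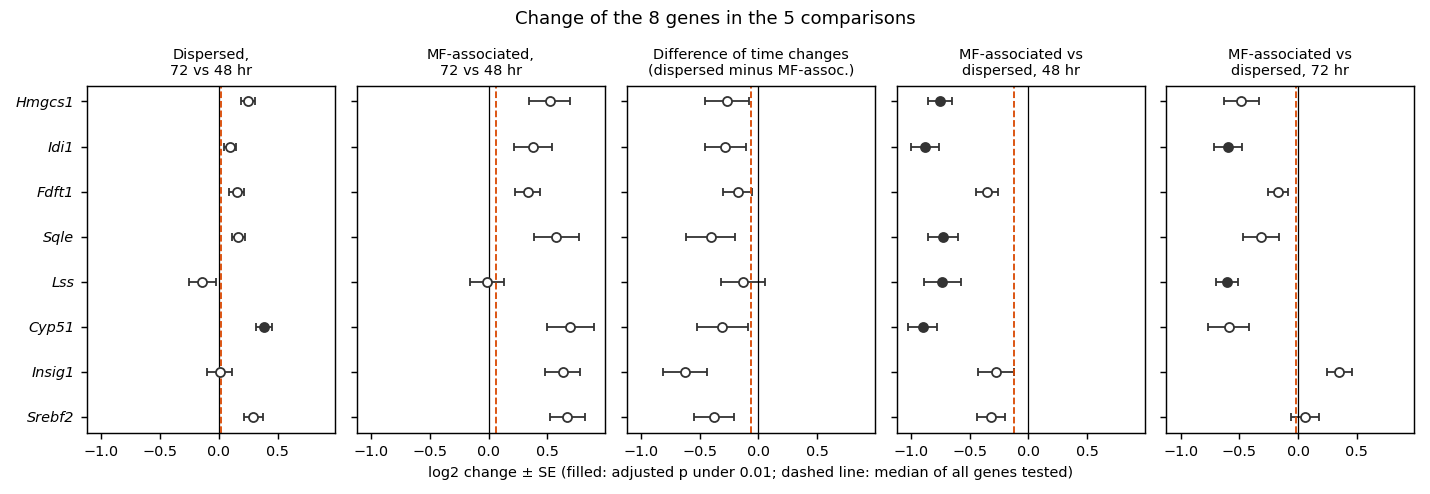
Log2 change ± SE of each gene (points and bars) in the 5 comparisons, with filled points for an adjusted p under 0.01 in limma and the median of all 20317 genes as a dashed line. In these brightest probes the difference of the time changes is below 0 for all 8 genes with none filled, although with the mean of all probes Fdft1 and Srebf2 are above 0, and 5 points are filled in the comparison of the cultures at 48 hr.

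Whether the time changes differed between the cultures was tested as the interaction on all 16 arrays. No difference passed 0.01 (0 of 8, against 2.37% of all genes with a smaller change in dispersed myoblasts), and 2 of the 8 were below 0 at an unadjusted p under 0.05 in limma, against 19.5% of all genes. The difference, dispersed minus myofiber-associated, was largest for Insig1 at -0.63 ± 0.19 (SE, limma adjusted p = 0.0412), a gene whose change was 0.01 in dispersed and 0.63 in myofiber-associated myoblasts. For the other 7 genes it was -0.13 ± 0.19 (Lss) to -0.41 ± 0.21 (Sqle), with adjusted p from 0.132 to 0.648, and the median of the 8 was -0.30, against -0.07 over all genes. In the brightest probes all 8 differences were below 0, against 57% of all genes, but with the mean of all probes those of Fdft1 (0.036) and Srebf2 (0.18) were above it, and the second Srebf2 probe, described below, gave 0.73. This comparison shares its arrays with both comparisons of time, whose own values are given above.

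At 48 hr 5 of the 8 genes were lower in myofiber-associated than in dispersed myoblasts at an adjusted p under 0.01 in limma, against 27% of all genes. The largest difference was that of Cyp51 (-0.90 ± 0.13, SE, or 1.87-fold lower, limma adjusted p = 0.000495), followed by Idi1 (-0.88 ± 0.12, 1.84-fold lower, 0.000396), Hmgcs1 (-0.76 ± 0.10, 1.69-fold lower), Lss (-0.73 ± 0.16, 1.66-fold lower) and Sqle (-0.73 ± 0.13, 1.66-fold lower). Fdft1 (-0.35, adjusted p = 0.0123), Srebf2 (-0.32, 0.0438) and Insig1 (-0.27, 0.148) did not pass 0.01, and Srebf2 was at 0.24 with the mean of its probes. Thus the genes past the threshold were enzymes and neither of the control genes was among them; the difference between these groups of genes was not tested. The median was -0.73, against -0.12 over all genes, and 6 of 8 (the 5 and Fdft1) had no overlap between the cultures, against 35.3% of all genes. Without dispersed replicate 1, 2 or 3 or myofiber-associated replicate 7 the call of Lss was lost, with an adjusted p of 0.0111 to 0.0138. Without the pooled replicate 10, 5 of the 8 passed, against 54.9% of all genes called in either direction in that fit.

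At 72 hr Idi1 and Lss were still lower in myofiber-associated myoblasts, by -0.60 ± 0.12 (SE, limma adjusted p = 0.00555) and -0.60 ± 0.09 (0.00155), or 1.51-fold and 1.52-fold. These 2 of 8 stand against 15.6% of all genes that were lower. Cyp51 (-0.59), Hmgcs1 (-0.48), Sqle (-0.32) and Fdft1 (-0.17) were below 0 without passing, whereas Srebf2 (0.06) and Insig1 (0.35 ± 0.11, adjusted p = 0.0274) were above it. The median was -0.40, against -0.02 over all genes, and 3 of 8 (Idi1, Lss and Cyp51) had no overlap in the lower direction, against 26.1% of all genes. The call of Idi1 was lost without myofiber-associated 72-hr replicate 2 and without any 1 of the 4 dispersed 72-hr arrays, with an adjusted p of 0.0137 to 0.0192.

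The scatter of the myofiber-associated arrays ran against the fiber markers at 72 hr and only in part at 48 hr. Taking the median over the 8 genes of each array's deviation from the gene's mean, the 72-hr arrays ran from replicate 3 (0.31) over replicate 1 (0.05) and replicate 2 (-0.11) to replicate 4 (-0.36). Their summed fiber marker signal ran the other way, with 255000, 333000, 895000 and 1150000. At 48 hr replicates 8 (-0.24) and 10 (-0.39) stood above replicates 7 (-0.53) and 9 (-0.63), and the fiber sums were 1450000 and 1240000 in the former and 1820000 and 1760000 in the latter. Within each of these pairs the array with the larger fiber sum was also the higher in the 8 genes. In dispersed myoblasts the deviation lay between 0.08 and 0.21 at 48 hr and between 0.29 and 0.34 at 72 hr, beside fiber sums of 35300 or less. Of the 10 fiber markers, 9 were higher in myofiber-associated myoblasts at 48 hr and 8 at 72 hr (limma, adjusted p under 0.01). Of all 20317 genes, 3279 and 2346 were. Between 48 and 72 hr 1 passed as lower in that culture and 6 in dispersed myoblasts, against 355 and 1291 of 20317 genes. At an unadjusted p under 0.05 in limma 9 were lower in the former and 7 in the latter, against 17.7% and 16.9% of all genes. The median changes of the 10 were -1.983 and -1.915. The summed signal of the 10 myoblast markers was 159000 to 180000 and 188000 to 253000 in dispersed and 198000 to 287000 and 310000 to 334000 in myofiber-associated myoblasts at 48 and 72 hr. Bright genes weigh most in that sum: at 48 hr Myog (8.25) and Des (4.05) were higher in myofiber-associated myoblasts, while Pax7 (-0.86), Myf5 (-0.63) and Chrna1 (-0.56) were lower, and the median difference of the 10 was -0.35. At 72 hr 4 of the 10 were higher and none lower, against 2346 and 3167 of 20317 genes, with a median of 0.48. The part of fiber RNA and of the share of myoblasts in these differences was not tested.

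**Figure D3:**
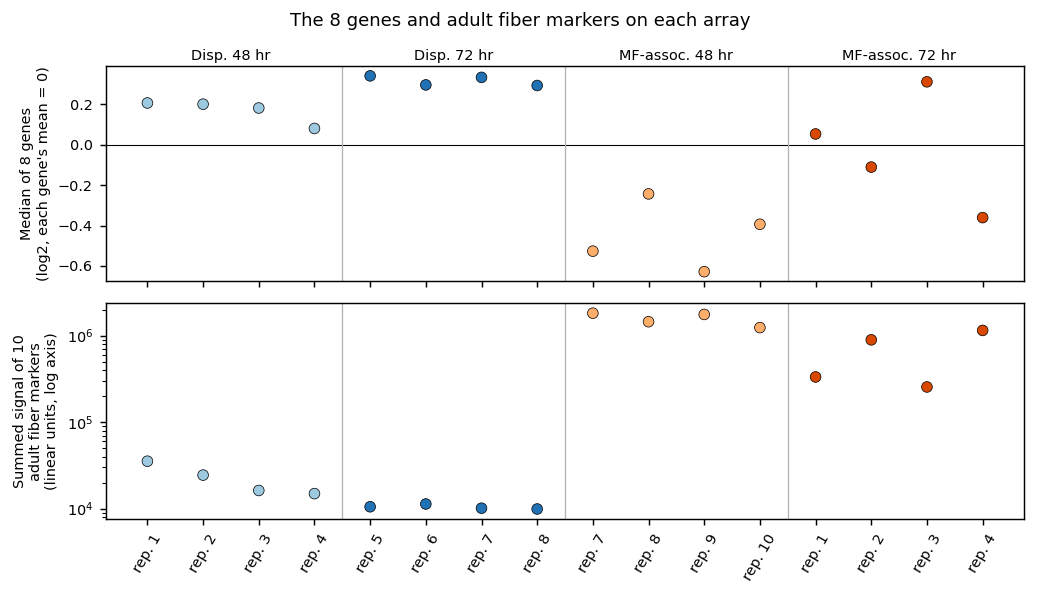
For each of the 16 arrays, the median over the 8 genes of the deviation from each gene's mean (upper panel, log2) and the summed linear signal of 10 adult fiber markers (lower panel, log axis). Among the 72-hr myofiber-associated arrays replicate 3 is highest in the upper panel and lowest in the lower panel, and replicate 4 is the reverse.

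A second probe exists for Hmgcs1, Fdft1 and Srebf2. Those of Hmgcs1 and Fdft1 were dim (means of 4.12 and 4.44), were well above background on 7 and 12 of the 16 arrays and fell under the filter. The second Srebf2 probe (mm9 chr15:82030068-82030127, upstream of the brighter probe in the same transcript) was well above background on all 16 arrays and disagreed with the brighter probe. It read 8.35, 8.64, 8.65 and 8.54 in dispersed myoblasts at 48 hr and 8.88, 8.65, 8.82 and 8.43 at 72 hr. In myofiber-associated myoblasts it read 9.15, 9.61, 9.84 and 8.80 at 48 hr and 8.96, 8.55, 8.63 and 8.91 at 72 hr. At 48 hr it was thus higher on every myofiber-associated than on every dispersed array, by 0.80 (limma over all probes, adjusted p = 0.0126), where the brighter probe was lower by 0.32. From 48 to 72 hr the myofiber-associated culture differed in it by -0.59 (adjusted p = 0.093), where the brighter probe differed by 0.67. None of these values of the second probe passed 0.01, and the direction of Srebf2 in these comparisons depends on the probe.

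**Figure D4:**
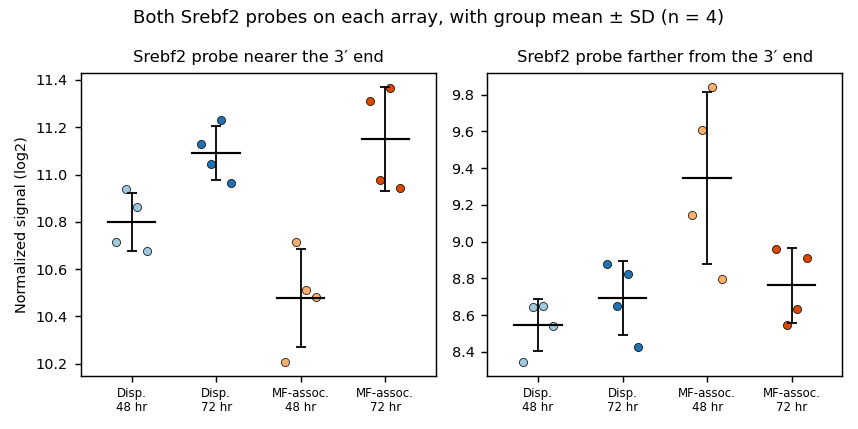
Normalized log2 signal of both Srebf2 probes on each array (points), with group mean ± SD over 4 arrays, each panel on its own axis. In the brighter probe (left) the myofiber-associated 48-hr mean of 10.48 is the lowest, and in the second probe (right) that group's mean of 9.35 is the highest.

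Other genes of the pathway were counted in lists. The synthesis genes counted include Ggps1, whose product geranylgeranyl diphosphate is no precursor of cholesterol. Of 15 other synthesis enzymes, 2 rose between 48 and 72 hr in dispersed myoblasts and none fell, against 7.37% of all genes that rose. The 2 were Tm7sf2, a sterol reductase (0.62), and Dhcr7, which makes cholesterol from 7-dehydrocholesterol (0.39). In myofiber-associated myoblasts Dhcr7 rose (0.96 ± 0.16, SE, limma adjusted p = 0.00663) and no other of the 15 passed, against 3.74% of all genes that rose. Of the 15 changes, 14 were above 0, against 57% of all genes. The median of the 15 was 0.07 in dispersed and 0.27 in myofiber-associated myoblasts, against 0.02 and 0.06 over all genes. At 48 hr 13 of the 15 were lower in myofiber-associated myoblasts, against 27% of all genes. They ran from Msmo1, a sterol methyl oxidase (-0.97), to Acat2, a thiolase (-0.44). The median of the 15 was -0.55, against -0.12 over all genes. Hsd17b7 (-0.35) and Mvd (-0.44) missed the threshold. At 72 hr 5 of 15 were lower, against 15.6% of all genes, and none was higher. Sc5d, a sterol desaturase, had the largest difference (-0.98).

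Genes of uptake did not move as 1 group. Their list holds a ubiquitin ligase and a lysosomal lipase beside receptors, so a fall in it is no measure of less uptake. Of 8 tested, 3 fell in dispersed myoblasts and none rose, against 1291 of 20317 genes that fell. The 3 were Mylip, a ubiquitin ligase whose gene is a target of LXR, by 0.95 on the log2 scale, Vldlr, and Lipa, the lysosomal lipase. At an unadjusted p under 0.05 in limma 4 of 8 were lower there, against 16.9% of all genes, and none was higher, against 21.7%. In myofiber-associated myoblasts Vldlr, a lipoprotein receptor of muscle and other tissues, fell (-2.36 ± 0.42, SE, limma adjusted p = 0.00906) and the other 7 did not pass. This 1 of 8 stands against 355 of 20317 genes that fell there. At an unadjusted p under 0.05 in limma 1 of the 8 was higher and 2 were lower in that culture, against 23.8% and 17.7% of all genes. The time changes of Mylip (-1.33 ± 0.19) and Lipa (-0.82 ± 0.15) differed between the cultures (limma interaction, adjusted p = 0.00113 and 0.00495). At 48 hr Scarb1, Mylip, Stard4 and Lipa were lower and Vldlr (3.43) and Npc1 (0.60) higher in myofiber-associated myoblasts. These are 4 of 8 lower, against 27% of all genes, and 2 of 8 higher, against 3279 of 20317 genes. The fiber marker sums above moved with the differences of Vldlr, and their part in them was not tested.

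Genes of sterol efflux and storage fell in time or did not pass. Of 7 tested, Abca1 and Abcg1, which export cholesterol, and Nr1h3, the sterol sensor LXR-alpha, fell in dispersed myoblasts, by 1.73, 1.12 and 1.66 on the log2 scale. These 3 of 7 stand against 1291 of 20317 genes that fell. Abcg1 also fell in myofiber-associated myoblasts (-1.497 ± 0.24, SE, limma adjusted p = 0.00598), where Abca1 (-1.44, 0.0172) and Nr1h3 (-1.37, 0.0487) did not pass. That is 1 of 7, against 355 of 20317 genes that fell there. The time change of Ch25h, cholesterol 25-hydroxylase, was 0.15 for dispersed and -1.57 for myofiber-associated cells, and their difference passed (1.72 ± 0.37, adjusted p = 0.00975). Cyp27a1 was under the filter. Between the cultures at 48 hr 4 of the 7 were lower in myofiber-associated myoblasts, against 27% of all genes. Higher there was 1 of the 7, against 3279 of 20317 genes. Beside the falls in time, 9 of 10 endothelial markers fell in dispersed and 8 of 10 in myofiber-associated myoblasts. Of all 20317 genes, 1291 and 355 fell. The sum of 9 leukocyte markers was 16800 to 19800 and 15900 to 17500 in dispersed and 22200 to 30400 and 17000 to 21200 in myofiber-associated myoblasts at 48 and 72 hr. On the myofiber-associated 72-hr arrays Nr1h3 read 9.06, 10.27, 8.66 and 10.61, beside fiber marker sums of 333000, 895000, 255000 and 1150000. The part of fiber RNA and of endothelial cells and leukocytes was not tested.

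None of 5 other genes that control SREBP (Scap, Insig2, Mbtps1, Mbtps2 and Srebf1) passed in either comparison of time in limma, and at an unadjusted p under 0.05 there were 1 of 5 in dispersed myoblasts, against 38.6% of all genes, and 2 of 5, 1 higher and 1 lower, in myofiber-associated myoblasts, against 41.4%. At 48 hr Scap, the escort of SREBP, was lower in myofiber-associated myoblasts (-0.54), while Insig2 (0.72) and Mbtps2, the site-2 protease (0.87), were higher. Thus 1 of 5 was lower, against 27% of all genes, and 2 of 5 higher, against 3279 of 20317 genes. Of 12 genes of fatty acid synthesis, which is driven mainly by SREBP-1, Fasn (0.40), Scd2 (0.39), Me1 (0.56) and Acsl3 (0.63) rose in dispersed myoblasts. These 4 of 12 stand against 7.37% of all genes that rose. None of the 12 passed in myofiber-associated myoblasts. At an unadjusted p under 0.05 in limma 6 of the 12 were higher there and 2 lower, against 23.8% and 17.7% of all genes. Me1, malic enzyme, had a time change that differed between the cultures (1.27 ± 0.25, SE, limma interaction, adjusted p = 0.00623). At 48 hr 9 of the 12 were lower in myofiber-associated myoblasts, against 27% of all genes. Acss2 (1.097) and Me1 (1.69) were higher (2 of 12, against 3279 of 20317 genes). The median of the 12 was -0.66, against -0.12 over all genes.

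**Figure D5:**
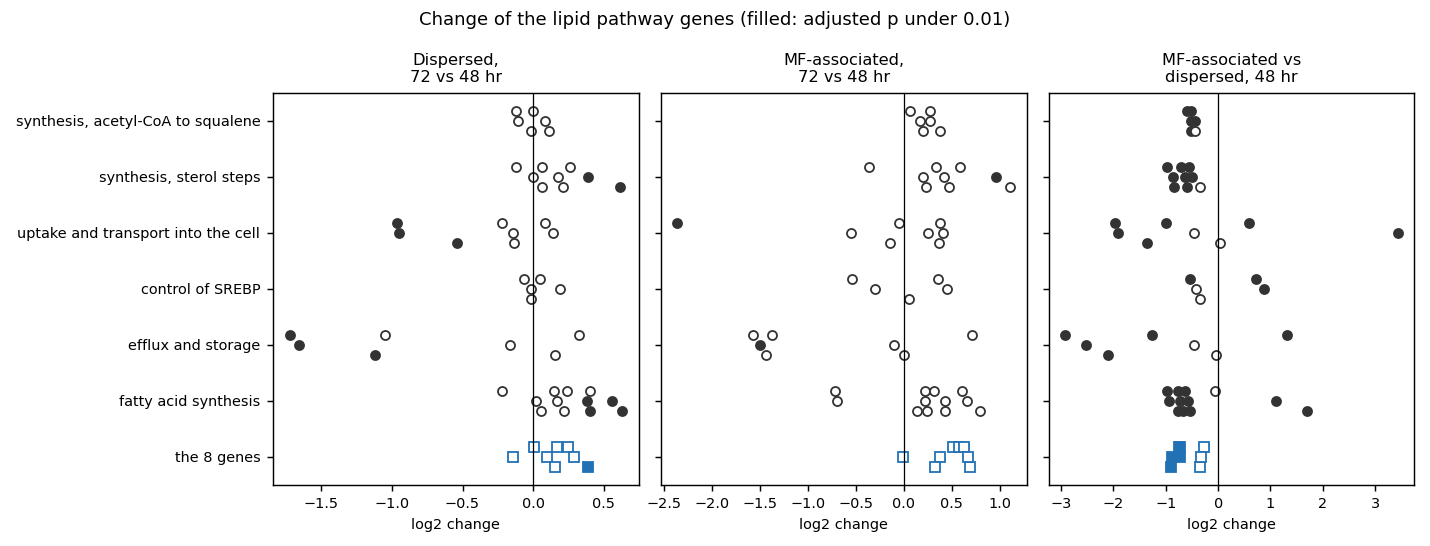
Log2 change of the 47 other pathway genes tested, by list (circles), and of the 8 genes (squares), in 3 comparisons, filled where the adjusted p in limma was under 0.01; the horizontal ranges differ between panels. At 48 hr 13 of 15 synthesis genes are filled below 0, against 27% of all genes tested, and Vldlr at 3.43 stands farthest above 0.

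The genes nearest in profile were taken by the root mean square difference, over the 16 arrays, from the median profile of the 8 genes after each gene's mean was set to 0. The 10 nearest outside the 8 were Asf1b, a histone chaperone (0.066), Evi5 (0.070), Rrm1, a subunit of ribonucleotide reductase (0.073), Plk1, a mitotic kinase (0.078), Homer3 (0.081), a probe without a gene symbol (0.081), Smchd1 (0.081), Prc1, a microtubule bundling protein (0.082), Nme1 (0.082) and Cstf3 (0.084). The median distance of all genes tested was 0.39, and the profile itself spanned 0.97. Sqle, the nearest of the 8, ranked 39, next to Elovl6, a fatty acid elongase, at 41 and Ggps1, which makes geranylgeranyl diphosphate, at 71. The others ranked 786 (Hmgcs1), 820 (Fdft1), 1048 (Idi1), 2784 (Cyp51), 3589 (Srebf2), 4053 (Lss) and 6747 (Insig1) of 20317. Each of the 8 is itself part of the median profile. The distance is a description over arrays that share their slides and cultures.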

How the data were processed

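The authors deposited scanner files with each spot's fluorescence intensity, background-subtracted and detrended by Agilent Feature Extraction 11.0.1.1 per the file headers, and a series table in which 72-hr arrays are given as log2 ratios to their own culture's mean at 48 hr. The 2 slides carry different versions of the design annotation, and 1849 gene spots are named differently; no name of the 8 genes is affected. Here log2 intensities without outlier spots were loess-normalized to the 48-hr mean of their culture (span 0.3, 4 iterations) and quantile-normalized, identical probes were averaged, the brightest probe stood for its gene, and genes with a median under 5 were left out. Comparisons used limma 3.58.1 in R 4.3.3, two-sided, on the 8 arrays of a comparison (16 for the interaction), with p adjusted by Benjamini-Hochberg across the 20317 genes and called under 0.01. The samr package of the paper was not used here. The code was tested on simulated data. Precision is limited by the number of arrays, and within a group a gene had a median SD of 0.095 to 0.22.

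The 8 genes, the lists and the tests were chosen with earlier results of these data known. Named genes are the 8 with every probe, list genes past the threshold in a comparison, a few others of high signal, and the 10 nearest profiles; Sqle, Elovl6 and Ggps1 in the ranking, Mvd, Hsd17b7 and Cyp27a1 were named after their values were seen. Some other genes of synthesis and uptake are not reported here. Alternatives were normexp (offset 50), quantile normalization alone, scaling to the 75th percentile, other filters on signal, the mean of all probes, every probe on its own, a threshold of 0.05, 1 fit of all 16 arrays, the slide row as a term, the deposited log2 ratios, and each array left out. Promoter windows are from RefSeq (GRCm38.p6) and probe positions from the design (mm9). Marker lists of fibroblasts, Schwann cells and adipocytes were also summed: on the dispersed and then the myofiber-associated arrays, at 48 and then 72 hr, the medians were 108000, 84900, 97400 and 55400 for fibroblasts, 8900, 6870, 3720 and 3770 for Schwann cells (Pmp2 above background on no array) and 72600, 25100, 22400 and 8950 for adipocytes (Lep above background on no array of the first 3 groups). Figures were drawn with matplotlib in Python.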

Additional observations from a re-analysis of the deposited data

Results flagged for a closer look

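In 32 groups of 4 arrays of the 8 genes, 2 arrays stood apart from the other 3 of their group by Dixon's criterion, and chance alone gives about 1 in 20. Hmgcs1 read 14.68 on dispersed 72-hr replicate 6, against 14.77 to 14.79 on the others, with a gap of 0.879 of the range. Fdft1 read 11.76 on myofiber-associated 48-hr replicate 9, against 12.03 to 12.04, with a gap of 0.983 of the range.

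In 4 of the 47 pathway genes tested outside the 8 the time change differed between the cultures in limma's interaction test, against 3.45% of all genes tested. The difference, dispersed minus myofiber-associated, was -1.33 for Mylip, -0.82 for Lipa, 1.72 for Ch25h and 1.27 for Me1.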

How the results depend on the processing

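No paired analysis was possible because the titles give the arrays of the groups compared different replicate numbers, or numbers from separate preparations. Over the 8 genes, the 5 comparisons and all alternatives, 741 of 800 single-gene values kept direction and side of the threshold, 27 passed it newly, 18 no longer passed and 14 turned in direction. Percentages in parentheses below are the share of all genes tested that were called, in either direction, in the same setting. In dispersed myoblasts the count of the 8 genes called was 1 (13.7%). It became 2 after scaling to the 75th percentile (15.4%) and with the deposited log2 ratios (18.4%), and 3 at a threshold of 0.05 (26.9%). It became 0 with no filter on low signal (5.89%) and in 1 fit of all 16 arrays (4.92%). With each array left out it was 0 to 1. In myofiber-associated myoblasts the count of 0 (5.48%) became 3 at 0.05 (22.6%), 6 in 1 fit of 16 arrays (28.5%) and 2 with the deposited ratios (18.6%). For the difference of the time changes 0 (3.45%) became 1 at 0.05 (15.4%) and 1 with the deposited ratios (18.8%). Between the cultures at 48 hr the count was 4 to 7 under every alternative run (24.9% to 59.4%). At 72 hr the count of 2 (27.1%) became 1 with no filter (13.7%) and with the slide row as a term (18.2%). It became 5 at 0.05 (45.8%) and 4 in 1 fit of 16 arrays (31.3%), and was 1 to 3 with each array left out. The median change became -0.20 with the mean of all probes. Directions turned for small values: Insig1 in dispersed myoblasts to -0.003975 under normexp (-0.0452 to 0.117 with each array left out), Lss in myofiber-associated myoblasts to 0.0174 with the deposited ratios (-0.116 to 0.0902 with each array left out), and Srebf2 between the cultures at 72 hr to -0.002745 after scaling to the 75th percentile (-0.0149 to 0.126 with each array left out). With the mean of all probes the difference of the time changes became 0.036 for Fdft1 and 0.178 for Srebf2, and Srebf2 between the cultures at 48 hr became 0.241, since that mean includes the second probes described above. The cause of the other changes was not tested.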
